A study of Homo sapiens with 6 samples.

Results

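Collagens, laminins and the enzymes and inhibitors that remodel them were followed in MDA-MB-231 cells that received an siRNA against ERBBride. Members were all protein-coding genes of the deposited table whose symbols begin as those of collagens (COL), laminin chains (LAMA, LAMB, LAMC), matrix metalloproteinases (MMP), tissue inhibitors of metalloproteinases (TIMP), thrombospondins (THBS), lysyl oxidases (LOX) or ADAMTS proteases. The rule used names only and found 113 of 20042 genes: 44 collagen, 12 laminin, 24 MMP, 4 TIMP, 4 THBS, 6 LOX and 19 ADAMTS entries. Among them 2 share a name but not a role. MMP24OS lies on the strand opposite to MMP24 and overlaps it, and LOXHD1 is not a lysyl oxidase.

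MDA-MB-231 is an established human breast cancer line with mesenchymal features, labelled as wild type. A small interfering RNA (siRNA) directs the breakdown of transcripts that match it. In 3 libraries (siRNA-1) the cells had received siRNA-1 directed at ERBBride, which the series title treats as a long non-coding RNA, and in 3 libraries (siCTRL) a control siRNA. A single siRNA against the target was used in the samples described here, and each group of 3 is labelled as biological replicates without a statement of how cultures were kept apart, so p-values measure the spread between these samples. The target had no entry in the count table and its knockdown was not analysed here. All values are RNA levels of whole cultures, in which fewer cells expressing a gene and less RNA per cell cannot be told apart.

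The extracellular matrix is a protein scaffold that cells secrete and rebuild. Fibrillar collagens form the fibres of connective tissue, while collagen IV and laminins form the sheet-like basement membrane on which epithelial cells rest. Lysyl oxidases crosslink collagen and elastin, MMP and ADAMTS proteases cut matrix proteins, and TIMPs block MMPs. In breast cancer, matrix stiffening and the cutting of basement membrane are known for their part in invasion.

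Some sequence features of the members are shown first because the values below refer back to them. The 7 bases GCTCACT had been picked in earlier results from genes that fell in these same data, so its place in the members is only a description. It was found in the longest annotated 3′ untranslated region (GENCODE 29, GRCh38) of 3 of the 10 members that fell at least 2-fold, of 8 of all 33 that fell (24.2%) and of 1 of the 15 that rose (6.67%). Among all tested genes the shares were 36.4% of those that fell at least 2-fold, 29.7% of those that fell and 11.4% of those that rose. Of all 67 tested members 10 held it (14.9%), against 19% of all tested genes with a 3′ untranslated region of at least 50 bases. The sites of the 3 members with the 2-fold falls, COL4A4, COL6A2 and COL8A2, and of the 1 member that rose, COL1A1, are given as 30 bases with the 7 bases in capitals. They lie at chr2:227006377-227006383 and chr2:227003527-227003533 (COL4A4, minus strand), chr21:46129011-46129017 (COL6A2, plus strand, in 2 of 4 transcripts with a stop codon), chr1:36095928-36095934 (COL8A2, minus strand) and chr17:50184389-50184395 (COL1A1, minus strand).
COL4A4 first site: cgctacatgggGCTCACTcaggcaggcacg
COL4A4 second site: tgtttctatcaGCTCACTggaataatctga
COL6A2: cctgtccctgtGCTCACTgcccccacgcct
COL8A2: gcaggctgtttGCTCACTtcttcaaaagga
COL1A1: cccagcccgctGCTCACTttccaccctctc

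Collagen IV genes lie in head-to-head pairs, so that the promoter windows show how close the starts of 2 chains are. On GRCh38.p14 (RefSeq), the start of COL4A2 lies 127 bases from that of COL4A1 on chromosome 13, the start of COL4A5 lies 380 bases from the nearer start of COL4A6 on chromosome X, and that of COL4A3 lies 419 bases from that of COL4A4 on chromosome 2. The windows run from 250 bases before to 50 after the start, at chr13:110307034-110307333 for COL4A2 and chrX:108439588-108439887 for COL4A5, both on the plus strand. Capitals mark the 5 bases CCAAT, or ATTGG where it lies on the other strand.
COL4A2: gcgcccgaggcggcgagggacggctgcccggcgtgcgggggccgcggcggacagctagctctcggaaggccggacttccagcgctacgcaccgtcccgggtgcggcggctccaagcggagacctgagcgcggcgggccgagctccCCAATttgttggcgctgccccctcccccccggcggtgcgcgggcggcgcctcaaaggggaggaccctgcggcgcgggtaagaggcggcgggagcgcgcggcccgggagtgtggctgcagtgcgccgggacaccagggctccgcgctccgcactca
COL4A5: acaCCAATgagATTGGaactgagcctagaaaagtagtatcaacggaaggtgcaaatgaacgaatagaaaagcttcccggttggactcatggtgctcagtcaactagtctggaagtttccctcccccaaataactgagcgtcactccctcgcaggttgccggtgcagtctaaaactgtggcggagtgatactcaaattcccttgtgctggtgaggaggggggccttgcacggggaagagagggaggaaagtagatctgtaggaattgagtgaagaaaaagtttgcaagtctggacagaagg
CCAAT on either strand was in the windows of 33 of the 78 members that had one (42.3%) and of 39.7% of all genes with a window. Of the 15 members that rose 9 had a window, and 6 of these held it, the head-to-head neighbours COL4A5 and COL4A6 among them. Of the 33 that fell 27 had a window, and 9 of these held it. Shares among all genes that rose or fell were not computed, so these counts are not read as a link to direction.

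Library totals ranged from 12813706 to 15014434 counts, and a floor of 3 counts equalled at most 0.233 counts-per-million (CPM). The library siCTRL 2 stood apart from the other controls: its log2 CPM differed from their mean with an SD of 0.301 over all tested genes, against 0.219 for siCTRL 1 and 0.240 for siCTRL 3. The means that siCTRL 1 and 3 were set against include siCTRL 2 itself. Differences between pairs of libraries, as a chi-square per degree of freedom, were 11.3 and 11.4 for siCTRL 2 with siCTRL 1 and 3. They were 2.27 between siCTRL 1 and 3 and from 2.12 to 2.4 within siRNA-1. Without siCTRL 2, 8635 of all genes were called (edgeR, adjusted p under 0.05), against 7772 with all libraries and 6848 to 7341 without another. Some of the 10 reference genes of the line were abundant. Vimentin (VIM) was at 1676 ± 28.9 CPM in siRNA-1 and 2652 ± 77.9 CPM in siCTRL libraries (SD, n = 3 each). Others were not: SPARC had a mean of 0.84 CPM in siRNA-1 and 0.42 CPM in siCTRL libraries, and TWIST2 had no counts. Of the 9 reference genes that could be tested, 7 fell and 1 rose (median log2 fold change -0.742). Among all tested genes 31.0% fell. The 7 falls include CD24 (log2 -1.59) and CDH1 (log2 -2.14), and CDH1 is also on the list of luminal markers. The count of 7 is therefore not read as a loss of the features of the line. Of 12 luminal breast markers, ESR1 had 6 counts over all libraries and PGR none, but keratin genes were abundant, with KRT8 at 535 ± 8.51 CPM in siRNA-1 and 688 ± 12.0 CPM in siCTRL libraries (SD, n = 3 each). All 8 luminal markers that could be tested fell (median log2 fold change -1.008), and the list summed to between 1130 and 1180 CPM in siRNA-1 and between 1620 and 1680 CPM in siCTRL libraries. Of the markers of other cell types, DCN, POSTN, CDH5, CD3E and HBB had no counts, while others were present. The 12 fibroblast markers summed to between 41.8 and 47.9 CPM in siRNA-1 and between 37.8 and 41.4 CPM in siCTRL libraries, and 3 of them (COL1A1, COL1A2 and COL3A1) are members here. The 8 endothelial markers summed to between 8.52 and 11.1 CPM in siRNA-1 and between 16 and 17.9 CPM in siCTRL libraries, and both that were tested fell. The 9 haematopoietic markers summed to between 182 and 189 CPM in siRNA-1 and between 146 and 196 CPM in siCTRL libraries. Most of that sum was CD68, at 178 ± 2.68 CPM in siRNA-1 and 159 ± 28.5 CPM in siCTRL libraries (not called, adjusted p = 0.199), and CD14 fell, at 7.71 ± 0.450 CPM in siRNA-1 and 17.3 ± 2.48 CPM in siCTRL libraries (SD, n = 3 each). The part of these marker lists in the results below was not tested.

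Matrix genes moved in both directions, and falls outnumbered rises. Of the 113 members, 67 had enough counts to test, and 48 of these changed (71.6%, where 62.5% of all 12440 tested genes changed; edgeR, adjusted p under 0.05). Rises numbered 15 (22.4%, against 31.5% of all tested genes) and falls 33 (49.3%, against 31.0%). At least 2-fold rises were seen for 5 members (7.46%, against 1.97%) and 2-fold falls for 10 (14.9%, against 8.14%). Of these, COL11A1 among the rises and COL4A4 and COL8A2 among the falls reached the count filter only through the group where they were higher. A large fold was therefore favoured for them, and such genes were not counted over the whole table. The CPM of the groups did not overlap at 48 members (71.6%, against 67.6%). The median log2 fold change was -0.264 over tested members and 0.006 over all tested genes. The number of rises was 9 without siRNA-1 replicate 3 and 8 without siCTRL replicate 1, when the falls numbered 30 each time. Of the 48 calls, 37 held in each of the 6 fits that left out 1 library.

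**Figure D1:**
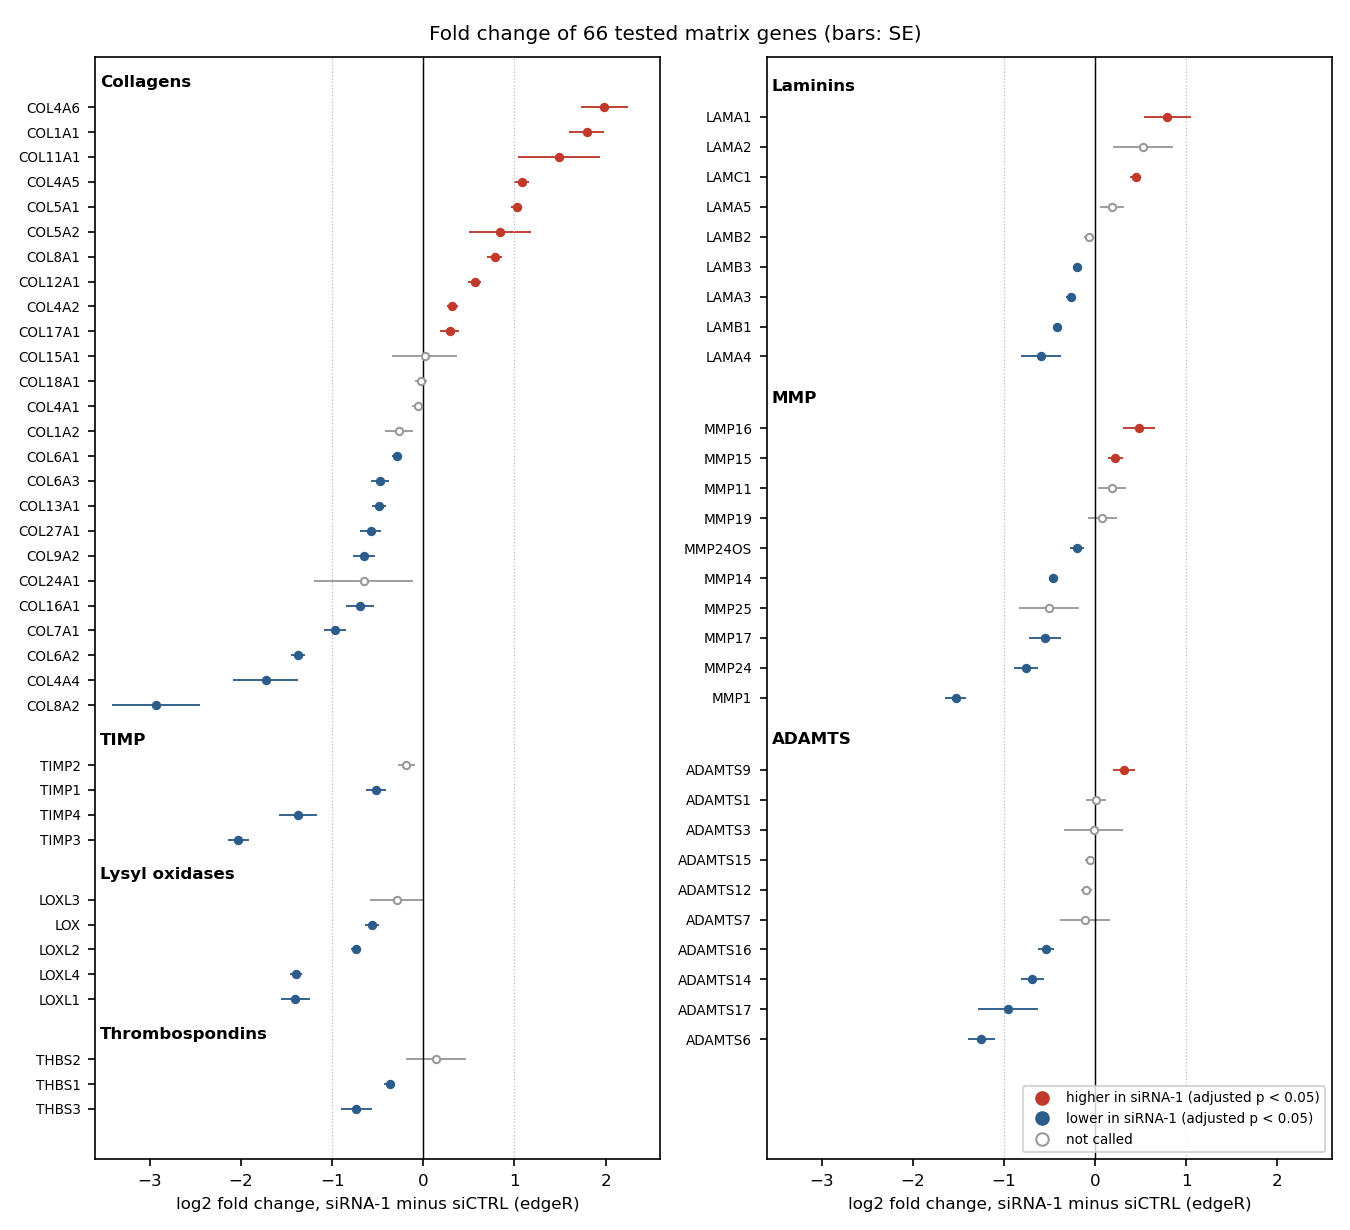
Log2 fold change of 66 of the 67 tested members, siRNA-1 minus siCTRL, with its standard error as a bar, grouped by family. Red points are higher and blue points lower in siRNA-1 at an adjusted p under 0.05, and open grey points were not called. Collagens split into 10 rises and 10 falls, while no TIMP, lysyl oxidase or thrombospondin gene rose.

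Collagens were the family with the widest split, with 10 of 25 tested members higher, 10 lower and 5 not called. Of the fibrillar collagens 4 of 7 rose and 1 fell, and their summed level was 528 ± 20.2 CPM in siRNA-1 and 273 ± 17.1 CPM in siCTRL libraries (SD, n = 3 each). Most of that sum was COL5A1, a chain of collagen V, which sets the diameter of collagen I fibres. COL5A1 (chr9:134641774-134844843, plus strand) had 466, 505 and 494 CPM in siRNA-1 libraries, against 231, 258 and 231 CPM in siCTRL libraries (log2 fold change 1.03, SE 0.06, adjusted p = 6.27e-08). All siRNA-1 libraries lay above all controls, which were close to one another. COL1A1, a chain of collagen I and the 1 rise with a GCTCACT site, had 16.8, 18.5 and 16.3 CPM in siRNA-1 libraries and 5.89, 6.06 and 2.90 CPM in siCTRL libraries. This was a 3.46-fold rise (log2 1.79, SE 0.19, adjusted p = 8.14e-06), and siCTRL 3 was the lowest of the controls. The partner chain COL1A2 did not pass, at 5.80, 6.36 and 5.86 CPM in siRNA-1 libraries and 7.53, 5.90 and 8.18 CPM in siCTRL libraries (log2 -0.26, adjusted p = 0.155). Without siCTRL 2, COL1A2 passed as a fall (adjusted p = 0.0211). COL27A1 fell, at 13.1, 11.6 and 12.9 CPM in siRNA-1 libraries against 19.5, 20.4 and 16.1 CPM in siCTRL libraries (log2 -0.58, adjusted p = 0.000801).

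Fibrillar chains of low count gave less firm values. COL11A1 had 46 counts in all siRNA-1 libraries together and 15 in siCTRL libraries, a ratio of 2.85 in normalised counts (95% counting interval 1.56 to 5.49). It reached the count filter through the siRNA-1 group only, and its call (adjusted p = 0.0128) was lost without siRNA-1 replicate 3 (0.058) or without siCTRL replicate 1 (0.059). COL5A2, the usual partner of COL5A1, was called (log2 0.84, adjusted p = 0.0457) but lost the call without siRNA-1 1 (0.0569), siRNA-1 2 (0.123), siRNA-1 3 (0.116), siCTRL 1 (0.092) or siCTRL 2 (0.167). COL3A1, the main chain of collagen III, had 6, 8 and 8 counts in siRNA-1 libraries and 2, 2 and 6 counts in siCTRL libraries and was not tested. COL2A1 had 1 count in all and COL5A3 none.

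Collagen IV, the network collagen of basement membranes, changed unequally over its chain pairs. COL4A5 (chrX:108439844-108697545, plus strand) had 69.2, 70.0 and 68.1 CPM in siRNA-1 libraries, against 33.3, 36.3 and 28.5 CPM in siCTRL libraries, a 2.12-fold rise (log2 1.08, SE 0.08, adjusted p = 4.76e-07). Its head-to-head neighbour COL4A6 (chrX:108155607-108439497, minus strand) had 3.63, 3.05 and 4.16 CPM in siRNA-1 libraries, against 0.821, 0.777 and 1.12 CPM in siCTRL libraries, a 3.96-fold rise (log2 1.99, SE 0.26, adjusted p = 3.37e-05). Both genes of this pair, whose starts lie close together as described above, were higher in every siRNA-1 library. In the other pair the outcome was mixed. COL4A2 (chr13:110305812-110513209, plus strand) had 232, 254 and 245 CPM in siRNA-1 libraries, against 184, 203 and 199 CPM in siCTRL libraries (log2 0.32, adjusted p = 0.000519). COL4A1 (chr13:110148963-110307233, minus strand) had 60.7, 56.8 and 60.3 CPM in siRNA-1 libraries and 63.6, 60.9 and 61.0 CPM in siCTRL libraries, and was not called (log2 -0.06, SE 0.06, adjusted p = 0.394). COL4A4, whose GCTCACT sites are given above as a description only, fell. It had 23 counts in siRNA-1 and 72 in siCTRL libraries (ratio 0.297, 95% counting interval 0.177 to 0.48, adjusted p = 0.00122). It reached the filter through the siCTRL group only, and its neighbour COL4A3 had 8 counts at most in a library and was not tested.

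Collagen VI, which forms beaded filaments next to basement membranes, fell in all 3 tested chains, and COL6A2 fell most. COL6A2 (chr21:46098097-46132849, plus strand) had 43.6, 44.1 and 41.5 CPM in siRNA-1 libraries, against 104, 124.8 and 107 CPM in siCTRL libraries, a 2.59-fold fall (log2 -1.37, SE 0.08, adjusted p = 4.04e-08). COL6A1 (chr21:45981737-46005050, plus strand), 93046 bases away, had 176, 195 and 182 CPM in siRNA-1 libraries and 218, 233 and 223 CPM in siCTRL libraries (log2 -0.29, adjusted p = 0.000933). The groups did not overlap at either gene, but the levels of COL6A1 lay much closer together. COL6A3 had 24.7, 25.8 and 24.5 CPM in siRNA-1 libraries and 33.7, 39.9 and 30.5 CPM in siCTRL libraries (log2 -0.47, adjusted p = 0.00136). Of the 3 chains, COL6A2 alone held GCTCACT in its 3′ untranslated region. These bases were picked from genes that fell in these same data, so this is a description only. A part of the site in the larger fall of COL6A2 was not tested. COL6A5 had 1 count in all libraries and COL6A6 none.

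The paired chains of collagen VIII went in opposite directions. COL8A1 had 288, 291 and 300.2 CPM in siRNA-1 libraries, against 158, 197 and 157 CPM in siCTRL libraries (log2 0.78, SE 0.08, adjusted p = 5.27e-06), with siCTRL 2 the highest control. COL8A2 had 2 counts in each siRNA-1 library, against 19, 10 and 16 counts in siCTRL libraries, a ratio of 0.124 in normalised counts (95% counting interval 0.0432 to 0.291; adjusted p = 0.000227). It reached the filter through the siCTRL group only. COL12A1, which decorates collagen I fibres, rose, with 578, 599.6 and 597 CPM in siRNA-1 libraries against 371, 456 and 375 CPM in siCTRL libraries (log2 0.56, adjusted p = 3.96e-05). Other fibre-associated chains fell: COL9A2 had 6.92, 8.15 and 6.95 CPM in siRNA-1 and 11.5, 12.1 and 11.1 CPM in siCTRL libraries (adjusted p = 0.000553). COL16A1 had 4.89, 4.50 and 4.43 CPM in siRNA-1 and 7.53, 8.47 and 6.47 CPM in siCTRL libraries (adjusted p = 0.00184). In neither gene did the groups overlap.

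Collagens that tie epithelium to its base or span the membrane were lower or near the control level, with 1 exception. COL7A1, the chain of the anchoring fibrils of skin, had 45.5, 44.5 and 51.7 CPM in siRNA-1 libraries, against 96.8, 107 and 73.5 CPM in siCTRL libraries (log2 -0.97, SE 0.12, adjusted p = 2.07e-05). The transmembrane collagen COL13A1 had 138, 141 and 147 CPM in siRNA-1 libraries and 182, 226 and 190.2 CPM in siCTRL libraries (log2 -0.49, adjusted p = 0.000153). COL17A1, a hemidesmosome collagen, had 18.4, 20.1 and 19.8 CPM in siRNA-1 libraries and 16.2, 14.2 and 17.3 CPM in siCTRL libraries. Its call as a rise (log2 0.29, adjusted p = 0.0245) was lost without siRNA-1 2 (0.083), siRNA-1 3 (0.0714), siCTRL 1 (0.0618) or siCTRL 2 (0.0663). COL18A1, the source of endostatin, had 163, 169.8 and 171 CPM in siRNA-1 libraries and 163, 188 and 163 CPM in siCTRL libraries and was not called (log2 -0.03, SE 0.06, adjusted p = 0.744). The opposite-strand gene SLC19A1 covers most of the 16.4% of its exonic bases that another gene overlaps.

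**Figure D2:**
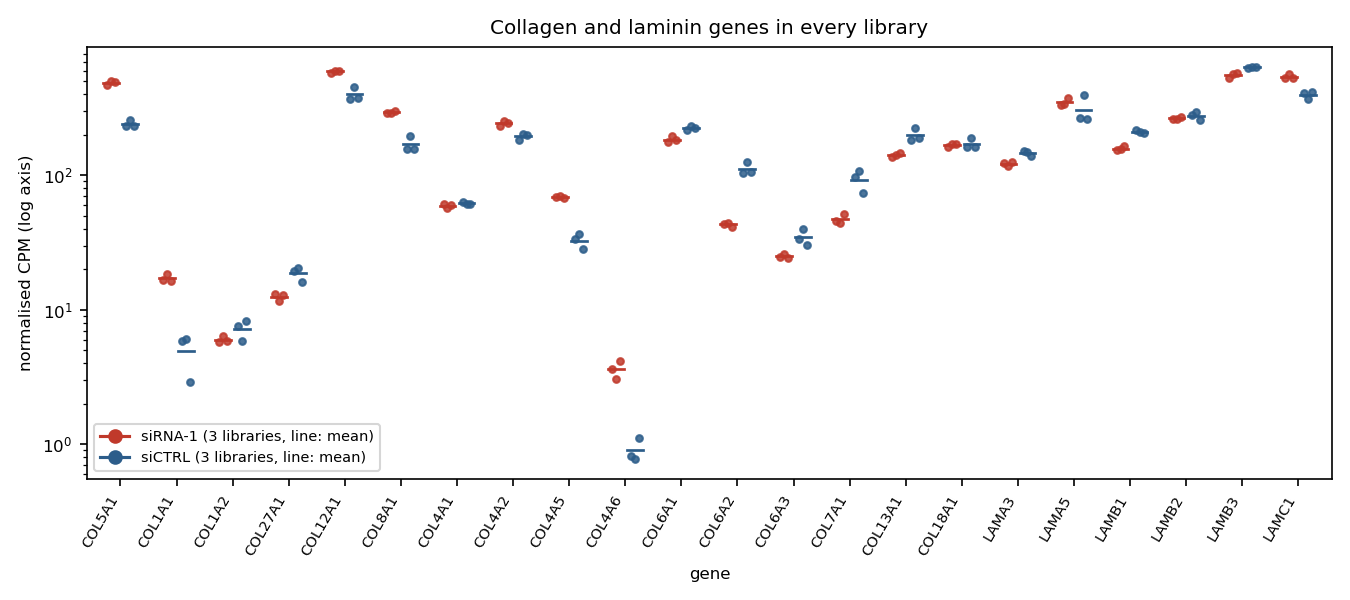
Normalised CPM (log axis) of collagen and laminin genes in each of the 3 siRNA-1 libraries (red, left of each pair) and 3 siCTRL libraries (blue, right), with the group mean as a line. The groups stand clear of each other at COL5A1, COL4A5 and COL6A2 and mix at COL18A1, LAMA5 and LAMB2.

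Laminins are trimers of an alpha, a beta and a gamma chain, and of the 10 tested chains 2 rose, 5 fell and 3 were not called. LAMC1 (chr1:183023460-183145592, plus strand), the gamma chain shared by most laminins, had 527, 568 and 529 CPM in siRNA-1 libraries, against 410.2, 366 and 414 CPM in siCTRL libraries. It rose (log2 0.45, SE 0.06, adjusted p = 4.7e-05) with no overlap of the groups. LAMC3 had no counts.

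LAMB3 and LAMA3, chains of a laminin that anchors epithelia, fell by small amounts. LAMB3 had 532, 563 and 572 CPM in siRNA-1 libraries and 626, 642 and 641 CPM in siCTRL libraries (log2 -0.20, SE 0.05, adjusted p = 0.00472). LAMA3 had 124, 117 and 126 CPM in siRNA-1 libraries and 151, 149 and 139.9 CPM in siCTRL libraries (log2 -0.26, adjusted p = 0.00168). Of the beta chains that join LAMC1, LAMB1 fell, at 153, 157 and 164 CPM in siRNA-1 libraries against 216, 209 and 206 CPM in siCTRL libraries (log2 -0.41, adjusted p = 3.05e-05), and LAMB2 was not called (log2 -0.07, adjusted p = 0.352). LAMA5, the most abundant alpha chain by CPM, had 333, 341 and 375 CPM in siRNA-1 libraries and 267, 395 and 261 CPM in siCTRL libraries (log2 0.19, SE 0.13, adjusted p = 0.227). Its siCTRL 2 value was the highest of all, and without that library LAMA5 was called as a rise (log2 0.39, adjusted p = 1.9e-12). More genes passed over the whole table in that fit (8635, against 7772 in the main fit), so this p is not read for LAMA5 alone. The low-count chains LAMA1 (log2 0.79, adjusted p = 0.0183) and LAMA4 (log2 -0.59, adjusted p = 0.0323) moved in opposite directions. LAMA1 had 2.65, 2.12 and 3.00 CPM in siRNA-1 and 1.44, 1.17 and 1.86 CPM in siCTRL libraries, and its call was lost without siRNA-1 1 (0.052), siRNA-1 3 (0.0771) or siCTRL 1 (0.0585). LAMA4 had 1.96, 2.65 and 2.25 CPM in siRNA-1 and 2.81, 3.81 and 3.79 CPM in siCTRL libraries, and its call was lost without siRNA-1 1 (0.118), siRNA-1 3 (0.0844), siCTRL 2 (0.0535) or siCTRL 3 (0.0931).

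Lysyl oxidases, the crosslinking enzymes, fell in 4 of 5 tested members with a median log2 fold change of -0.737, and none rose. Over all tested genes 31.0% fell and the median was 0.006. Their summed level was 340 ± 9.95 CPM in siRNA-1 and 622 ± 23.2 CPM in siCTRL libraries (SD, n = 3 each). LOXL4 (chr10:98247690-98268250, minus strand) had 68.0, 67.9 and 65.9 CPM in siRNA-1 libraries, against 189, 165 and 177 CPM in siCTRL libraries, a 2.63-fold fall (log2 -1.40, SE 0.06, adjusted p = 7.31e-09). LOXL2, the most abundant of the family by CPM, had 191, 206 and 198 CPM in siRNA-1 libraries, against 319.6, 326 and 344 CPM in siCTRL libraries (log2 -0.74, SE 0.05, adjusted p = 3.61e-07). Every siRNA-1 library lay below every control at both genes. LOXL1, known for the crosslinking of elastin, had 5.24, 4.31 and 3.48 CPM in siRNA-1 libraries, against 10.7, 12.9 and 10.9 CPM in siCTRL libraries (log2 -1.40, SE 0.16, adjusted p = 1.35e-05). LOX itself had 63.2, 69.4 and 72.9 CPM in siRNA-1 libraries, against 106, 90.2 and 108 CPM in siCTRL libraries (log2 -0.56, adjusted p = 6.51e-05). LOXL3 stayed between 0.994 and 2.11 CPM in siRNA-1 and between 1.63 and 1.99 CPM in siCTRL libraries and was not called (adjusted p = 0.421).

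Among the MMPs, the 2 most abundant per length of transcript both fell. MMP1 (chr11:102789920-102798160, minus strand), the interstitial collagenase, had 109, 102 and 105 CPM in siRNA-1 libraries, against 351, 237 and 325 CPM in siCTRL libraries, a 2.88-fold fall (log2 -1.53, SE 0.12, adjusted p = 4.44e-07). MMP14 (chr14:22836557-22849027, plus strand), a membrane-bound collagenase that also activates other MMPs, had 620, 644 and 594 CPM in siRNA-1 libraries, against 856, 819 and 875 CPM in siCTRL libraries (log2 -0.46, SE 0.05, adjusted p = 1.28e-05). Both genes were lower in every siRNA-1 library, and siCTRL 2 was the control nearest to them. The other membrane-bound MMPs lay far below MMP14. MMP24 had 5.87, 5.23 and 5.52 CPM in siRNA-1 and 8.69, 9.01 and 10.4 CPM in siCTRL libraries (log2 -0.76, adjusted p = 0.000445). Other genes overlap 21.8% of its exonic bases, MMP24OS among them, which itself was called as a fall (log2 -0.20, adjusted p = 0.0361) at 44.6, 45.2 and 44.8 CPM in siRNA-1 and 55.9, 46.1 and 52.7 CPM in siCTRL libraries. The strand setting of the counting is unknown, so reads of the 2 genes cannot be told apart where they overlap. Such overlap also touched MMP25 (35.2% of exonic bases), LOXL3 (19.3%), MMP19 (17.4%) and LAMA1 (11.1%). It was smaller at TIMP4 (10.3%), TIMP2 (10%), LOXL1 (9.21%), MMP1 (7.61%) and THBS1 (7.58%). The MMP24OS call was lost in 5 of the 6 fits with a library left out (without siCTRL 1 adjusted p = 0.142, siRNA-1 1 0.105, siRNA-1 2 0.093, siRNA-1 3 0.0993 and siCTRL 3 0.0917).

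MMP16 and MMP17 were called near the threshold and in opposite directions. MMP16 had 8.17, 10.6 and 10.8 CPM in siRNA-1 and 6.43, 9.01 and 5.80 CPM in siCTRL libraries, so the groups overlapped (log2 0.48, adjusted p = 0.0312). It was not called without siRNA-1 2 (0.11), siRNA-1 3 (0.11), siCTRL 1 (0.107) or siCTRL 3 (0.114). MMP17 had 3.70, 3.64 and 3.95 CPM in siRNA-1 and 5.89, 4.50 and 6.10 CPM in siCTRL libraries (log2 -0.55, adjusted p = 0.0155), and was not called without siRNA-1 2 (0.0553), siCTRL 1 (0.0548) or siCTRL 3 (0.0572). MMP15 was called as a rise (log2 0.22, adjusted p = 0.0392), and the call was lost without siRNA-1 1 (0.0847), siRNA-1 2 (0.127), siCTRL 1 (0.141) or siCTRL 3 (0.0588). MMP11, MMP19 and MMP25 were not called. Of the secreted MMPs 14 of 17 had too few counts to test. The gelatinase genes were among them: MMP2 had 2, 7 and 0 counts in siRNA-1 and 10, 9 and 5 counts in siCTRL libraries, and MMP9 had 1, 7 and 3 counts in siRNA-1 and 1, 4 and 1 counts in siCTRL libraries. The chromosome 11 neighbours of MMP1 were also near 0, where the stromelysin gene MMP3 had 8, 9 and 4 counts in siRNA-1 and 2, 1 and 3 counts in siCTRL libraries, and MMP7 had 0 counts in siRNA-1 and 1, 1 and 6 counts in siCTRL libraries. MMP8 and MMP27 had none.

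All of the inhibitor genes that changed fell (75.0% of those tested, against 31.0% of all tested genes), and TIMP3 fell most. The 4 TIMP genes summed to 1498 ± 50.1 CPM in siRNA-1 and 2542 ± 456 CPM in siCTRL libraries (SD, n = 3 each). TIMP3 (chr22:32801701-32863043, plus strand), which binds to the matrix and also blocks ADAM and ADAMTS proteases, had 245, 258 and 237 CPM in siRNA-1 libraries, against 1128, 788 and 1104 CPM in siCTRL libraries. This was a 4.08-fold fall (log2 -2.03, SE 0.11, adjusted p = 3.99e-08), and even the lowest control, siCTRL 2, lay far above the siRNA-1 libraries. TIMP1 (chrX:47582313-47586789, plus strand) had 358, 359.6 and 372 CPM in siRNA-1 libraries, against 574, 406 and 586 CPM in siCTRL libraries (log2 -0.52, SE 0.11, adjusted p = 0.00131). TIMP4 had 3.14, 3.44 and 3.00 CPM in siRNA-1 libraries, against 9.99, 5.82 and 8.995 CPM in siCTRL libraries, a 2.59-fold fall (log2 -1.38, SE 0.21, adjusted p = 0.00012). TIMP2, the partner of MMP14 in the activation of MMP2, was not called: it had 843, 927 and 883 CPM in siRNA-1 libraries and 1102, 816 and 1097 CPM in siCTRL libraries (log2 -0.18, SE 0.10, adjusted p = 0.116).

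The falls of the TIMP genes were smaller with siCTRL 2, the library that stood apart, than without it. Its log2 CPM minus the mean of the other controls was -0.513 at TIMP1, -0.431 at TIMP2, -0.502 at TIMP3, -0.690 at TIMP4 and -0.510 at MMP1. Without it TIMP2 was called as a fall (log2 -0.33, adjusted p = 3.99e-11), while the other 3 TIMP calls and that of MMP1 held in all 6 fits with a library left out. P-values in the fit without siCTRL 2 are not comparable with those of the main fit. That of TIMP3 went from 3.99e-08 to 2.19e-59 while its log2 fold change went from -2.03 to -2.19.

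**Figure D3:**
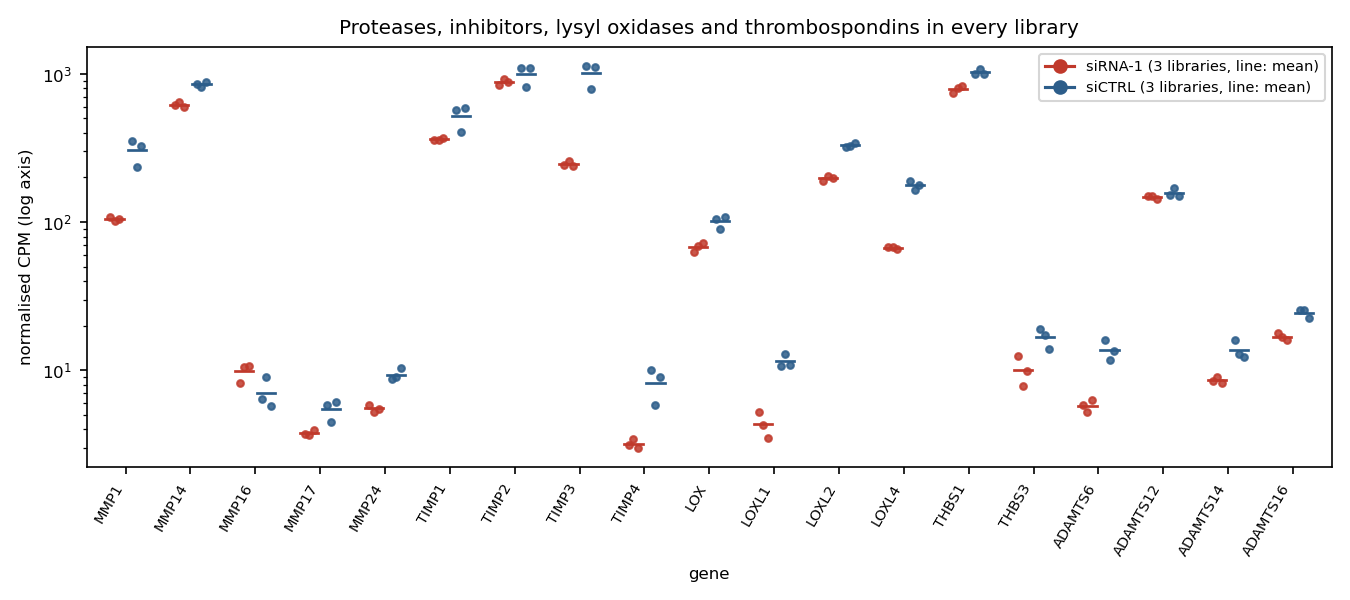
Normalised CPM (log axis) of MMP, TIMP, lysyl oxidase, thrombospondin and ADAMTS genes in each siRNA-1 library (red, left of each pair) and each siCTRL library (blue, right), with the group mean as a line. TIMP3, MMP1 and LOXL4 show wide gaps between the groups, and at TIMP2 the 3 siRNA-1 libraries lie within the range of the controls.

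ADAMTS genes, which encode secreted proteases with thrombospondin repeats, were mostly near the control level or low in count. Of 10 tested members 1 rose, 4 fell and 5 were not called, and 9 were not tested. ADAMTS6 had 5.87, 5.23 and 6.27 CPM in siRNA-1 libraries, against 15.9, 11.7 and 13.5 CPM in siCTRL libraries, a 2.37-fold fall (log2 -1.25, SE 0.14, adjusted p = 1.39e-05). ADAMTS14, which trims the amino-terminal ends of fibrillar procollagens, had 8.45, 9.01 and 8.25 CPM in siRNA-1 libraries, against 16.0, 12.97 and 12.4 CPM in siCTRL libraries (log2 -0.69, adjusted p = 0.00052). ADAMTS16 had 18.0, 16.8 and 16.1 CPM in siRNA-1 libraries, against 25.5, 25.7 and 22.5 CPM in siCTRL libraries (log2 -0.54, adjusted p = 0.00031). The groups did not overlap at any of these 3 genes. The most abundant member by CPM, ADAMTS12, was not called, with 149, 151 and 143 CPM in siRNA-1 and 153, 170.1 and 150.2 CPM in siCTRL libraries (log2 -0.10, SE 0.06, adjusted p = 0.182). ADAMTS9 was called as a rise although its groups overlapped (log2 0.32, adjusted p = 0.0355), and the call was lost in 5 of the 6 fits with a library left out, with adjusted p of 0.0519 without siRNA-1 1, 0.146 without siRNA-1 2, 0.0592 without siRNA-1 3, 0.152 without siCTRL 1 and 0.11 without siCTRL 3. ADAMTS17 was called as a fall (log2 -0.96, adjusted p = 0.0228), but not without siRNA-1 2 (0.104), siRNA-1 3 (0.0607) or siCTRL 1 (0.0978).

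Thrombospondins, matrix glycoproteins that bind cells and growth factors, fell in 2 of 3 tested members, where 31.0% of all tested genes fell. THBS1 had 747, 803 and 827 CPM in siRNA-1 libraries, against 1002, 1078 and 992 CPM in siCTRL libraries (log2 -0.37, SE 0.06, adjusted p = 0.000129). THBS3 had 12.6, 7.82 and 9.88 CPM in siRNA-1 libraries, against 18.9, 17.3 and 13.98 CPM in siCTRL libraries (log2 -0.73, adjusted p = 0.00218), and other genes overlap 25.4% of its exonic bases. The groups did not overlap at either. THBS2 was not called (adjusted p = 0.731), and THBS4 had 10 counts in all.

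On a TPM-like scale (counts per kilobase of exon, scaled to a common total, and the one scale used here to rank genes), the order of the members was different in the 2 groups. TIMP1 ranked first in both, at 925 ± 28.6 in siRNA-1 and 1264 ± 198 in siCTRL libraries (SD, n = 3 each). TIMP3 ranked 7 of 67 in siRNA-1 libraries, at 210 ± 8.08, and 2 of 67 in siCTRL libraries, at 816 ± 127. In siCTRL libraries the levels of TIMP3, MMP14 (714 ± 6.20) and TIMP2 (666 ± 85.2) lay within their spreads of one another. In siRNA-1 libraries TIMP2 (616 ± 31.2) was followed by MMP14 (544 ± 18.4) and LAMB3 (465 ± 21.5), each further from the next than their SDs. COL5A1 ranked 10 in siRNA-1 and 18 in siCTRL libraries, and LOXL4 ranked 20 in siRNA-1 and 9 in siCTRL libraries.

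Ratios of genes that act together were computed within each library, which removes its scaling. Of 14 pairs, 11 had no overlap between groups, and each of these gave a p of 0.1 by a two-sided exact permutation test of 3 libraries against 3, the smallest it allows (0.127 adjusted over the pairs). The pairs share genes, so these are not separate results. CPM depend on transcript length, so a ratio is read between groups and not as a number of chains. The ratio of COL6A2 to COL6A1 was 0.248, 0.226 and 0.229 in siRNA-1 libraries, against 0.478, 0.535 and 0.477 in siCTRL libraries. That of LAMB1 to LAMC1 was 0.290, 0.277 and 0.310 in siRNA-1 libraries, against 0.526, 0.571 and 0.498 in siCTRL libraries. Both ratios were lower in every siRNA-1 library, with little spread among replicates of a group.

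Enzyme and inhibitor ratios went either way. MMP1 to TIMP1 was 0.304, 0.284 and 0.283 in siRNA-1 libraries, against 0.612, 0.583 and 0.554 in siCTRL libraries. MMP14 to TIMP3 was 2.54, 2.49 and 2.50 in siRNA-1 libraries, against 0.759, 1.04 and 0.793 in siCTRL libraries. MMP14 to TIMP2 was 0.736, 0.694 and 0.672 in siRNA-1 libraries, against 0.777, 1 and 0.797 in siCTRL libraries. The ratios of MMP1 to TIMP1 and of MMP14 to TIMP2 were lower in every siRNA-1 library, and that of MMP14 to TIMP3 was higher. COL1A1 to COL1A2 was 2.89, 2.91 and 2.78 in siRNA-1 libraries, against 0.782, 1.03 and 0.355 in siCTRL libraries, which differed widely among themselves. COL4A2 to COL4A1 was 3.82, 4.47 and 4.06 in siRNA-1 libraries, against 2.90, 3.34 and 3.25 in siCTRL libraries. The groups overlapped for COL6A3 to COL6A1, LAMA3 to LAMB3 and LAMA5 to LAMC1.

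**Figure D4:**
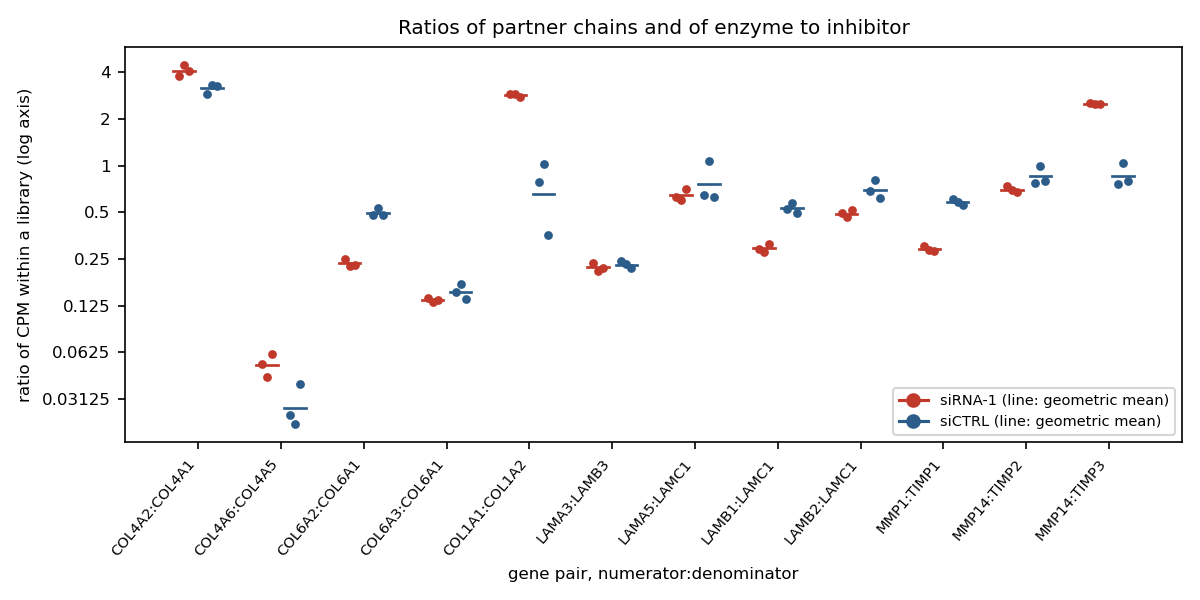
Ratio of the CPM of 2 genes within a library (log axis) for 12 of the 14 pairs, with siRNA-1 libraries in red on the left and siCTRL libraries in blue on the right of each pair, and the geometric mean as a line. The ratios of COL6A2 to COL6A1, LAMB1 to LAMC1 and MMP1 to TIMP1 lie lower in siRNA-1 libraries, and that of MMP14 to TIMP3 lies higher.

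Genes that make or bind the same matrix also moved both ways, as did all tested genes, of which 31.5% rose and 31.0% fell. Of 28 tested genes of collagen biosynthesis 10 rose, 7 fell and 11 were not called (median log2 fold change 0.068). SERPINH1, the collagen chaperone of the endoplasmic reticulum, had 602 ± 14.4 CPM in siRNA-1 and 239 ± 6.12 CPM in siCTRL libraries (2.52-fold, adjusted p = 2.33e-09; SD, n = 3 each). P3H2, a prolyl hydroxylase of collagens, had 227 ± 8.36 CPM in siRNA-1 and 107 ± 5.53 CPM in siCTRL libraries (2.13-fold, adjusted p = 2.92e-08). Among 10 tested basement membrane partners 3 rose and 5 fell (median -0.245), with TINAGL1 1.78-fold and FRAS1 1.53-fold lower. Among 29 other matrix glycoproteins and proteoglycans 5 rose and 12 fell (median -0.399), and CCN2, a secreted matricellular protein, had 86.0 ± 3.00 CPM in siRNA-1 and 328 ± 36.7 CPM in siCTRL libraries (adjusted p = 3.84e-09). TGFBI fell too (log2 -1.38, adjusted p = 2.96e-09).

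Of 29 tested protease regulators and related proteases 6 rose and 12 fell (median -0.189), where 31.5% of all tested genes rose and 31.0% fell. BSG, a membrane protein known to induce MMPs, had 299 ± 7.57 CPM in siRNA-1 and 679 ± 73.4 CPM in siCTRL libraries (2.27-fold lower, adjusted p = 8.9e-08). Of 13 collagen and laminin receptors other than integrins 4 rose and 6 fell (median -0.114). Their smallest p values were those of the syndecans SDC4, which rose 1.52-fold, and SDC3, which fell 2.06-fold.

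The other 46 members were not tested. Of these, 11 had no counts in any library, and the highest of the remaining 35 reached 11 counts in a library and 36 in all. They comprised 19 collagens, 2 laminin chains, 14 MMPs, 1 thrombospondin, 9 ADAMTS genes and LOXHD1. With no filter on low counts, the 35 with a count could be fitted: MMP7 was called as a fall (adjusted p = 0.037) on the 8 counts given above, none was called as a rise, and 4 had an unadjusted p under 0.05.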

How the data were processed

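RNA was measured in 6 libraries of MDA-MB-231 cells made with the NEBNext Ultra kit, per the labels' protocols. The deposited values are whole-number counts per gene, which the authors made with HTSeq on hg38, per the submitters' processing notes. Trimmomatic, STAR and kallisto stand in the same notes, with no version. Annotation release, strand setting and filters are not stated in the sources used. Symbols came from a reference list of gene names (20042 identifiers matched, 19552 with the same version). Positions came from GENCODE 29, in which all 113 members had the same symbol. No row lacked a gene and 0 columns were left unused.

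Counts were fitted with edgeR 4.0.16 in R 4.3.3 over the whole table: filterByExpr (minimum count 10, minimum total 15), which left 12440 genes, TMM scaling, a two-sided quasi-likelihood F test of group alone, and Benjamini-Hochberg adjustment over all tested genes at 0.05. SEs were computed from each log2 fold change and F value. The steps were tested on simulated counts. TPM-like levels divide counts by the exon length of GENCODE 29. Counting intervals (95%) and floors cover counting error only. Exact permutation tests were run in scipy 1.17.1.

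The members, gene lists, pairs and tests were chosen with earlier results of these data known. Values in every library are given, per class of each family, for the most abundant tested member by CPM and for up to 3 further called members with the smallest p, and all members called at 2-fold or more are named. From each pathway list the 2 smallest p are named. Some genes that these rules pick are not reported here. Other genes named were chosen after their values were seen. The alternatives were DESeq2 1.42.0 size factors and its Wald test, no scaling, no filter, a mean of at least 100 counts, limma-voom (limma 3.58.1), the replicate block, each library left out and a threshold of 0.01.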

Additional observations from a re-analysis of the deposited data

How the results depend on the processing

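Across the alternatives, between 35 and 48 members changed, beside 48 in the main fit. Of 663 values for 48 named genes under 14 alternatives, 621 kept direction and side of the threshold, 38 kept direction but did not pass, and 2 passed newly (TIMP2 and LAMA5 without siCTRL 2). The number of members that rose was 15, but 9 at a mean of at least 100 counts, where fewer genes were tested, 8 at a threshold of 0.01, and between 8 and 14 with 1 library left out. COL18A1, not called in the main fit (log2 -0.03), had log2 0.009996 with no scaling beyond library size, 0.0322 without siCTRL 2 and between -0.0721 and 0.0322 with 1 library left out. The cause was not tested. At a mean of at least 100 counts 9 named genes had no value. Scaling moved the median log2 fold change of all genes between -0.001 and 0.043. Deviations of same-numbered libraries from their group means correlated at 0.0669, -0.0782 and -0.0571 over genes, and not every library correlated best with its own number. With 3 libraries in each group, these values cannot show whether the replicates were paired. With replicate number as a block, 46 members changed, and the calls of COL5A2 and MMP15 were lost. Genes under about 1 CPM rest on few counts, and their fold changes are the least precise.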
